A study of Homo sapiens with 4 samples.

Results

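The MYC, MAX and MXD network was examined in H1299 cells, a human lung cancer cell line of the non-small-cell type with no p53 of its own. Its 10 genes were MYC, MYCN, MYCL, MAX, MXD1, MXD4, MXI1, MNT, MLX and MGA, matched by Ensembl gene ID among the 61852 genes of the deposited tables. Of the 10, 9 passed the filter on low counts, which 15965 genes passed in all, and MYCN did not. RNA had been sequenced from 2 libraries of cells expressing CASM34 and 2 of cells expressing wild-type p53 (p53WT). The genotype label of all 4 libraries is p53-/-, so p53 came from what was introduced. The title of the series speaks of synonymous mutations seen in cancers and of the p53 response to DNA damage. The labels give neither the base change of CASM34, nor the vector and promoter, nor any treatment, and no library without p53 was analysed here. Whether the libraries of a group came from separate cultures is not stated, and p-values therefore measure library-to-library spread that may be technical.

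MYC, MYCN and MYCL are transcription factors that bind DNA at E-boxes only as a pair with MAX, and they activate genes for ribosome production, metabolism and growth. The MXD proteins, MXI1, MNT and MGA also pair with MAX and repress from the same kind of site. MLX is a MAX-like partner of some of the MXD proteins, of MNT and of the nutrient sensors MLXIP (MondoA) and MLXIPL (ChREBP). p53 is known to repress MYC in several cell systems.

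A single network gene changed between the groups: MXD4, which encodes a MAX-binding repressor, was 1.22-fold higher in CASM34 than in p53WT cells. The other 8 tested members did not pass, and of all tested genes 1.95% changed and 1.61% rose. MYC was the most abundant network transcript in every library and was 1.05 times as high in CASM34 as in p53WT, which did not pass, with an interval from 0.98-fold to 1.12-fold. The genes that MYC activates did not pass singly. Of 9 tested genes that MYC represses 2 rose and 7 did not pass. The 2, CDKN1A and GADD45A, are also direct targets of p53, and the part of MYC in their rise was not tested. The rise of MXD4 was not called in 9 of 19 alternative analyses, among them all those that took GC content into account.

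Promoters of 3 network genes hold the canonical E-box, and they are shown because an E-box is the DNA element the network itself reads. The sequences are from RefSeq (GRCh38.p14), 5′ to 3′ on the strand of the gene, with the E-box CACGTG in capitals.
MXD4, chr4:2262330-2262359, minus strand: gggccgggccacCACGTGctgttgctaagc
MNT, chr17:2401236-2401283, minus strand: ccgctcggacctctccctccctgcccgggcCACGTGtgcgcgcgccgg
MLX, chr17:42567020-42567067, plus strand: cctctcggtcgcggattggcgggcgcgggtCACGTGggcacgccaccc
The E-box lies 232 bases upstream of the RefSeq start in MXD4, 187 in MNT and 44 in MLX, and 47, 129 and 12 bases upstream of the start in GENCODE 29. Promoter windows ran from 250 bases before to 50 after each RefSeq start. RefSeq windows were matched for 9 of the 10 members, 14 windows in all, and the entry for MYC was not among them. CACGTG, which reads the same on both strands, was in 3 of the 14 windows, against 7.26% of 35116 windows of all genes and 9.29% of the 16577 windows of tested genes. The variant CACGCG, searched on both strands, was in 2 of the 14, in MXI1 and in MGA, against 11.4% of all windows and 17.3% of windows of tested genes. A match is a description of the sequence and not a measured binding site. Of the 3 genes with an E-box, MXD4 rose, MNT had a log2 fold change of 0.09 and MLX one of -0.10.

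The libraries had estimated read counts of 26906095 and 18086983 in CASM34 and 21717726 and 25969760 in p53WT. Of 15965 tested genes 312 changed (1.95% of genes tested), 257 rose (1.61%) and 55 fell (0.345%). The median log2 fold change of all tested genes was -0.00055. The line's epithelial and mesenchymal markers KRT18 and VIM did not pass, at 1035 and 1025 CPM (counts scaled to the size of the library) in CASM34 against 1011 and 1031 CPM in p53WT for KRT18, and 4484 and 4239 CPM in CASM34 against 4301 and 4257 CPM in p53WT for VIM. Of 6 markers of the line 3 were tested and 0 passed. The tested marker beside KRT18 and VIM lay at a log2 fold change of 0.11, higher in both CASM34 libraries. Its unadjusted p was under 0.05 (edgeR adjusted p = 0.242). The epithelial genes EPCAM and CDH1 were nearly absent, with 2 and 1 counts in CASM34 and 3 and 8 in p53WT for EPCAM and at most 2 in any library for CDH1. The 6 leukocyte markers were at most 0.49 TPM in any library, 3 of them had no count in any library, and none was tested. Of 6 fibroblast and endothelial markers, which summed to 0.98 and 4.59 TPM in CASM34 and 1.48 and 6.01 TPM in p53WT, 3 were tested and did not pass.

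**Figure D1:**
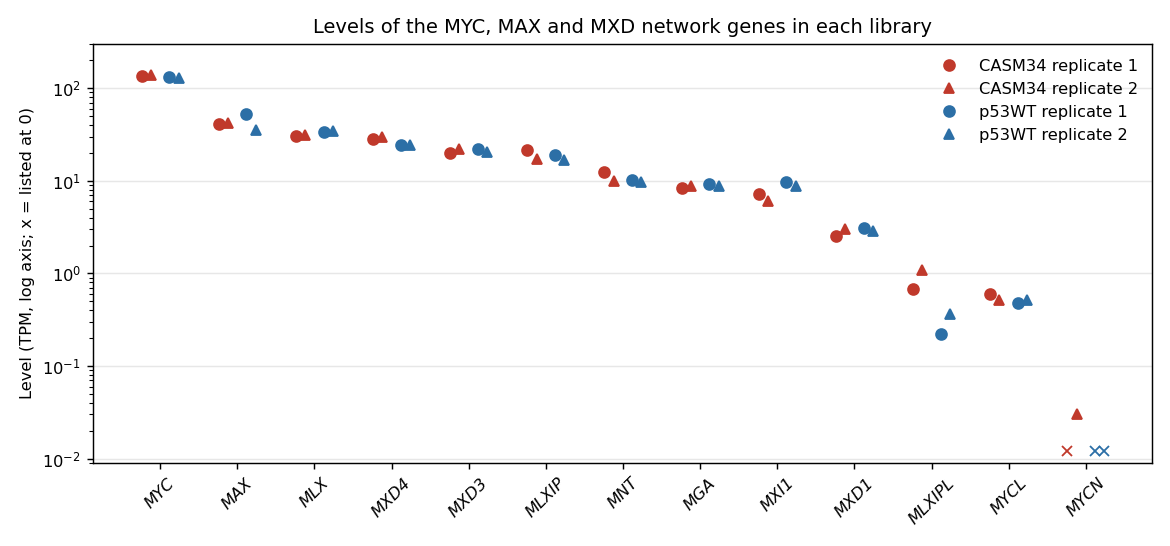
Levels of 13 network genes (TPM, log axis) in each of the 4 libraries, ordered by mean level, with CASM34 libraries left of p53WT libraries and crosses for values listed at 0. MYC lies between 130 and 139 TPM, above every other gene, and MYCN is at 0 in 3 libraries.

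Among the activators, MYC (ENSG00000136997.21, GRCh38 chromosome 8, 127735434 to 127741434, plus strand, GENCODE 29) stood alone in level. Its TPM, a level per transcript length, was 135 and 139 in CASM34 cells and 132 and 130 in p53WT cells. Its share of the summed TPM of MYC, MYCN and MYCL was 99.6% in each library. Its scaled counts were 222 and 219 CPM in CASM34 and 211 and 211 CPM in p53WT. Both CASM34 libraries lay above both p53WT libraries, as they did for 24.5% of genes tested. The log2 fold change was 0.06 (SE 0.04, 95% interval -0.03 to 0.16, edgeR adjusted p = 0.496), so a difference was not detectable between these libraries. With the GC and length offset described below it lay at -0.0050.

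MYCL (ENSG00000116990.11, chromosome 1, 39895426 to 39902256, minus strand), a paralog known from small-cell lung cancer, was barely detected. It had 26 and 21 counts in CASM34 and 24 and 20 in p53WT, with overlapping groups, and its log2 fold change was 0.18 (SE 0.38, edgeR adjusted p = 0.862). Its interval runs from -0.66 to 1.01, so a difference within that range was not detectable at this depth. MYCN (ENSG00000134323.13, chromosome 2, 15940564 to 15947007, plus strand), the neuroblastoma paralog, had 0 and 1 counts in CASM34 and 0 and 0 in p53WT. A count of 0 allows up to 3 counts per library, and no fold is given.

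MAX (ENSG00000125952.20, chromosome 14, 65006174 to 65102695, minus strand), the obligate partner of MYC and of the repressors, had 47.1 and 45.3 CPM in CASM34 and 47.0 and 48.5 CPM in p53WT. The groups overlapped and the log2 fold change was -0.05 (SE 0.06, edgeR adjusted p = 0.735). Its TPM was more spread, at 40.9 and 42.1 in CASM34 against 52.1 and 35.6 in p53WT. The effective length that the authors' RSEM assigned to MAX differed as well, with 1361 and 1273 bases in CASM34 and 1084 and 1607 bases in p53WT. The p53WT libraries thus differed from each other in TPM by more than the groups did, and in CPM the libraries lay closer together.

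MXD4 (ENSG00000123933.17, chromosome 4, 2247432 to 2262294, minus strand) was the member that rose. It had 84.6 and 87.6 CPM in CASM34 and 71.2 and 69.6 CPM in p53WT. Both CASM34 libraries lay above both p53WT libraries, and the gap between the groups was larger than the spread within either. The means were 86.1 ± 2.14 CPM in CASM34 and 70.4 ± 1.14 CPM in p53WT (SD, n = 2 each). The log2 fold change was 0.29 (SE 0.05, 95% interval 0.18 to 0.40, edgeR adjusted p = 0.0123). Its TPM was 28.2 and 29.8 in CASM34 and 24.1 and 24.6 in p53WT.

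In bulk RNA, more cells that express MXD4 and more MXD4 RNA per cell cannot be told apart. MXD4 has a GC content of 61.0%, and over all tested genes the median log2 fold change increased with GC content. The 1815 tested genes within 2 percentage points of it had a median log2 fold change of 0.12, 2.98% of them rose and 0 fell. Tested genes with at least 65% GC had a median of 0.26, while those under 45% had a median of -0.07. With an offset for how each library's counts trend with GC content and length, MXD4 lay at 0.14 (edgeR adjusted p = 0.229). It also missed the threshold without p53WT replicate 1 (0.30, adjusted p = 0.0560), without p53WT replicate 2 (0.27, adjusted p = 0.0651) and with an offset for effective length (0.26, adjusted p = 0.266). Its log2 fold change stayed above 0 in all 19 alternatives, between 0.11 and 0.32.

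**Figure D2:**
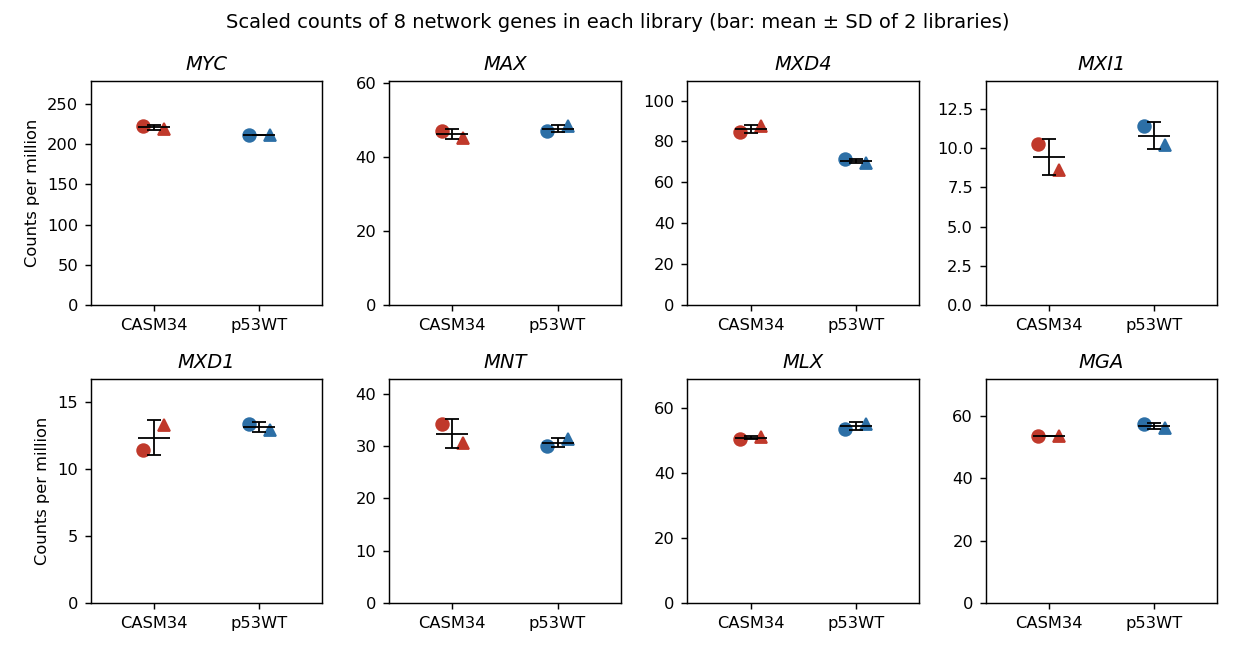
Scaled counts (CPM) of 8 network genes in each library, CASM34 left and p53WT right in each panel, with bars for the mean and SD of 2 libraries and axes starting at 0. MXD4 lies at 84.6 and 87.6 CPM in CASM34 and 71.2 and 69.6 CPM in p53WT, and the groups overlap for MAX, MXI1, MXD1 and MNT.

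The other MAX-binding repressors did not pass. MXI1 (ENSG00000119950.21, chromosome 10, 110207605 to 110287365, plus strand), an MXD family member also called MXD2, had 10.3 and 8.60 CPM in CASM34 and 11.4 and 10.2 CPM in p53WT. The groups overlapped and the log2 fold change was -0.18 (SE 0.13, edgeR adjusted p = 0.516). Per length the difference was larger, with 7.23 and 6.06 TPM in CASM34 and 9.82 and 8.73 TPM in p53WT, a log2 TPM difference of -0.48, and on this scale both CASM34 libraries were lower. Its effective length was 1674 and 1680 bases in CASM34 and 1394 and 1375 bases in p53WT. The annotation that the authors used lists 38 transcript models of MXI1, and the gene tables do not show from which of them the reads came. Limma on log2(TPM + 0.1) gave no call for it (adjusted p = 0.377).

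MXD1 (ENSG00000059728.11, chromosome 2, 69897688 to 69942945, plus strand), a repressor linked to differentiation, had 11.4 and 13.3 CPM in CASM34 and 13.4 and 12.9 CPM in p53WT. Its groups overlapped, and the log2 fold change was -0.10 (SE 0.11, edgeR adjusted p = 0.709). MNT (ENSG00000070444.15, chromosome 17, 2384060 to 2401118, minus strand), a broadly expressed antagonist of MYC, had 34.3 and 30.5 CPM in CASM34 and 29.96 and 31.2 CPM in p53WT. The groups overlapped and the log2 fold change was 0.09 (SE 0.08, edgeR adjusted p = 0.610). MGA (ENSG00000174197.18, chromosome 15, 41621224 to 41773081, plus strand), a large scaffold of a Polycomb-related repressor complex, had 53.7 and 53.7 CPM in CASM34 and 57.6 and 56.2 CPM in p53WT. Both CASM34 libraries were lower, as in 23.4% of genes tested, but the log2 fold change of -0.08 did not pass (SE 0.05, edgeR adjusted p = 0.464).

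MLX (ENSG00000108788.12, chromosome 17, 42567068 to 42573239, plus strand), the partner of MLXIP and MLXIPL, had 50.6 and 51.2 CPM in CASM34 and 53.5 and 55.2 CPM in p53WT. It was lower in both CASM34 libraries, and its log2 fold change was -0.10 (SE 0.05, edgeR adjusted p = 0.400). Its counts were fractional in 4 libraries, so they include reads that RSEM shared with other gene models. The same holds for MXD3, which enters the repressor sums below. Of the network proteins outside the 10, the MXD family member MXD3 had a log2 fold change of -0.03, MLXIP 0.07 and MLXIPL 0.55 (SE 0.42, edgeR adjusted p = 0.555), and none passed.

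**Figure D3:**
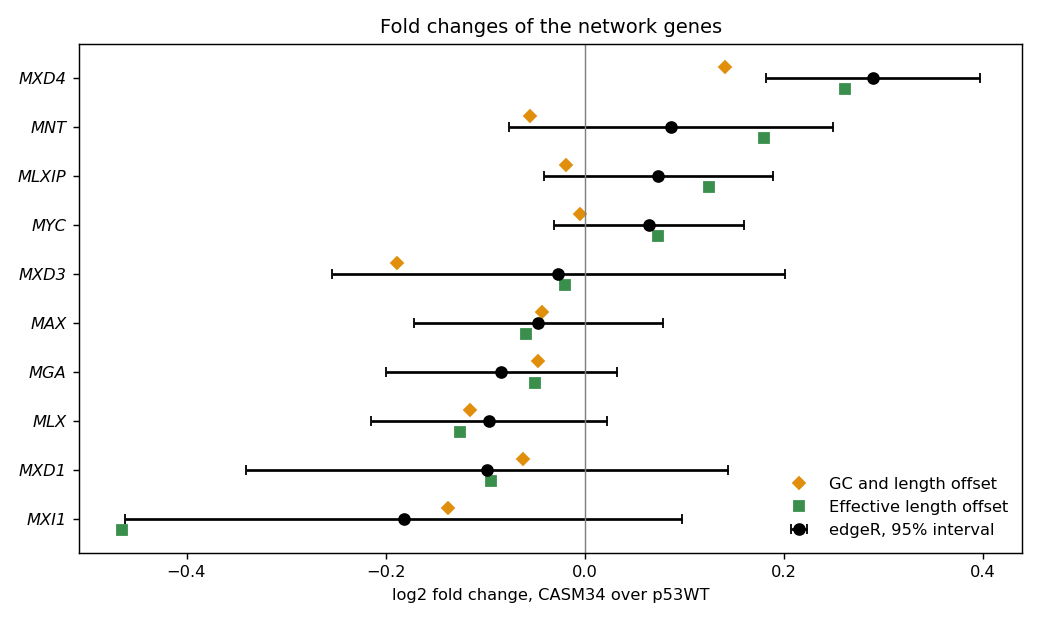
Log2 fold changes of network genes, CASM34 over p53WT, as edgeR estimates with 95% intervals, with the GC and length offset and the effective length offset as separate markers. Of the genes shown, the interval of MXD4 alone excludes 0, and its value is 0.14 with the GC and length offset. MYCL and MLXIPL, whose intervals are wide, and MYCN, which was not tested, are left out.

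Taken over the members, 1 of 9 rose, 0 fell and 8 did not pass in the edgeR fit, in which 1 of the 9 had an unadjusted p under 0.05 (17.1% of all tested genes). A single rise among 9 genes is 11.1%, beside 1.61% of all tested genes, and rests on MXD4. Of the 9 log2 fold changes 4 lay above 0 and 5 below, with a median of -0.05 beside -0.00055 for all tested genes, and with the GC and length offset MYC and MNT also lay below 0. DESeq2 and limma-voom likewise called MXD4 as the single member. Groups did not overlap in 4 members, with MYC and MXD4 higher and MLX and MGA lower in both CASM34 libraries, a share near that of all tested genes (47.9%).

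Ordered by TPM over all 4 libraries, the transcripts ran from MYC (mean 134 TPM) over MAX, MLX, MXD4, MXD3, MLXIP, MNT, MGA, MXI1, MXD1, MLXIPL and MYCL to MYCN. The ranges of neighbours in that order overlapped for MXD3 and MLXIP, for MGA and MXI1, and for MLXIPL and MYCL. MYC was 3.14-fold above MAX.

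The repressor transcripts together were fewer than those of MYC. Summed over MXD1, MXD3, MXD4, MXI1, MNT and MGA, they were 0.579 and 0.573 TPM per TPM of MYC, MYCN and MYCL in CASM34 and 0.595 and 0.576 in p53WT. The groups overlapped, and the difference of -0.0090 was smaller than the SD of 0.0132 in p53WT. Within the repressors, MXD4 made up 35.8% and 37.3% in CASM34 and 30.6% and 32.6% in p53WT. MXI1 made up 9.20% and 7.59% in CASM34 and 12.5% and 11.6% in p53WT. In CPM, which is not divided by length, its groups overlapped, and its effective length was longer in both CASM34 libraries. The groups did not overlap in the share of MXD4 or of MXI1. Nor did they for MXD1 (3.26% and 3.75% in CASM34, 3.89% and 3.84% in p53WT) or MGA (10.8% and 11.1%, against 11.8% and 11.6%). Shares of a sum depend on each other, and in CPM the groups did not overlap in 47.9% of all tested genes. MAX per summed partner was 0.191 and 0.192 in CASM34 and 0.247 and 0.173 in p53WT. These shares are a description, since 2 libraries against 2 cannot reach an exact permutation p under 0.05.

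**Figure D4:**
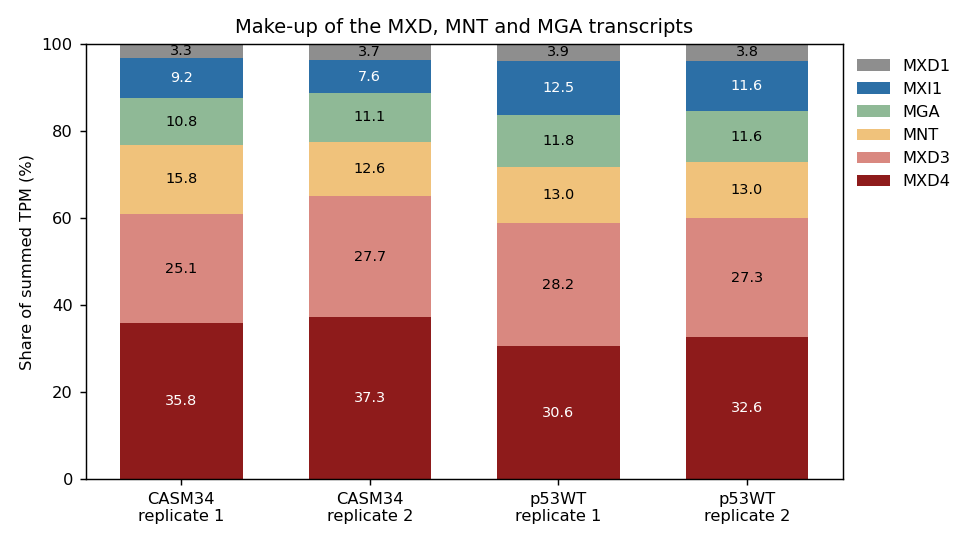
Share of each MAX-binding repressor gene in their summed TPM, for each CASM34 library and then each p53WT library. MXD4 takes 35.8% and 37.3% in CASM34 and 30.6% and 32.6% in p53WT, and MXI1, MXD1 and MGA each take less in both CASM34 libraries. In CPM the groups overlap for MXI1 and MXD1.

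Genes that work with the network did not pass in any of 4 lists in the main edgeR fit. These were 12 MYC cofactors (median log2 fold change 0.03, and -0.05 with the GC and length offset), 14 genes of MYC protein turnover (-0.02), 10 corepressor genes used by the MXD proteins and MNT (-0.06) and 9 partners of MGA in the PRC1.6 complex (-0.03). An unadjusted p under 0.05 was found for 2 of the 12, 4 of the 14, 5 of the 10 and 2 of the 9, beside 17.1% of all tested genes. The 5 corepressor genes went both ways, with HDAC2, RBBP4 and RBBP7 lower and SIN3B and SAP30 higher in CASM34. DESeq2 called 1 of these genes and limma-voom 0. It was the corepressor gene RBBP4, at -0.17 (DESeq2 adjusted p = 0.0423). SAP30, of the same list, lay the other way at 0.49 (edgeR adjusted p = 0.0617) and passed as higher in 7 alternatives, among them 3 of the 4 fits that left out a library (all except the one without p53WT replicate 1, where it lay at 0.33). RBBP4, SAP30, HDAC2 and SIN3B were named after their values were seen. In the cofactor list 1 gene passed as higher without CASM34 replicate 2. The helicase genes RUVBL1 and RUVBL2, which MYC recruits, lay at -0.11 and -0.03. HUWE1, a ubiquitin ligase for MYC, lay at -0.01, and AURKA, a mitotic kinase that shields the MYCN protein from degradation, at -0.16 (SE 0.04, edgeR adjusted p = 0.0971). The histone deacetylase gene HDAC1 lay at -0.08 and its complex partner RBBP7 at -0.12. CBX3 and TFDP1 of the PRC1.6 list lay at -0.10 and -0.03.

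In edgeR, limma-voom and DESeq2 on all 4 libraries no gene that MYC activates passed, and most had log2 fold changes below 0. Of 18 ribosome production genes 15 lay below 0 with a median of -0.06, and of 24 metabolic and growth genes 18 lay below 0 with a median of -0.07, beside 8009 of the 15965 tested genes below 0. An unadjusted p under 0.05 was found for 5 of the 18 and 8 of the 24, beside 17.1% of all tested genes. These went both ways. RRS1 (0.14, edgeR adjusted p = 0.135) and BOP1 (0.14) of the ribosome list lay above 0. So did TERT (0.37, edgeR adjusted p = 0.108) and SRM (0.11) of the growth list, and the rest lay below. RRS1 and TERT had the lowest p of their lists. All 4 were named after their values were seen. Without CASM34 replicate 2, 1 of the 24 passed as higher. NPM1 and NCL, which encode nucleolar proteins of ribosome assembly, lay at -0.10 and -0.05. The glycolytic enzyme gene ENO1 and the chaperonin gene HSPD1 lay at -0.08 and -0.09. With the GC and length offset the medians of the 2 lists were -0.06 and -0.07.

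Of 9 tested genes that MYC is known to repress, 2 rose and 0 fell, beside 1.61% and 0.345% of all tested genes. The list had a median log2 fold change of 0.13, beside -0.00055 for all tested genes. Its median was 0.08 with the GC and length offset and 0.30 with the effective length offset. The median GC content was 55.6% in the list and 49.5% in all tested genes. CDKN1A, which encodes the cell cycle inhibitor p21, had 517 and 531 CPM in CASM34 and 390 and 413 CPM in p53WT (log2 fold change 0.38, edgeR adjusted p = 0.00274). GADD45A, a growth arrest gene, had 89.0 and 90.7 CPM in CASM34 and 71.9 and 75.2 CPM in p53WT (log2 fold change 0.29, edgeR adjusted p = 0.0128). Both are also direct targets of p53, and another p53 target, MDM2, rose by 0.23 (edgeR adjusted p = 0.0255), though its counts, fractional in all 4 libraries, include reads shared with other gene models. How far MYC and how far p53 takes part was not tested. GADD45A missed the threshold without p53WT replicate 1 (0.25, adjusted p = 0.109), and so did MDM2 (0.19, adjusted p = 0.204), which also missed it without p53WT replicate 2 (0.26, adjusted p = 0.0516). Both also missed it with the effective length offset (adjusted p = 0.225 for GADD45A and 0.402 for MDM2) and in limma on log2(TPM + 1) (0.296 and 0.492) and on log2(TPM + 0.1) (0.298 and 0.497). The GC and length offset left GADD45A past the threshold (0.23, adjusted p = 0.0376), while 2 later versions of that offset did not (0.0743 and 0.0593). CDKN1A passed in each fit that left out 1 library, but not with the effective length offset (0.39, adjusted p = 0.140) or in limma on log2(TPM + 1) (0.38, adjusted p = 0.260) and on log2(TPM + 0.1) (0.38, adjusted p = 0.255).

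Targets of MLX with MondoA or ChREBP did not pass. Of 5 tested genes 0 rose and 0 fell in edgeR, 0 had an unadjusted p under 0.05, and the median was 0.0011. The glycolysis regulator gene PFKFB3 lay at 0.0011 and the repressor gene KLF10 at -0.02. TXNIP, the best known MondoA target, was listed at 0 in all 4 libraries. Of 7 noncoding RNAs of the MYC, MYCN and MNT loci, 5 were matched and 1 was tested. PVT1, which lies next to MYC, had 22.4 and 25.2 CPM in CASM34 and 22.05 and 21.3 CPM in p53WT, and its log2 fold change was 0.13 (SE 0.09, edgeR adjusted p = 0.497).

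**Figure D5:**
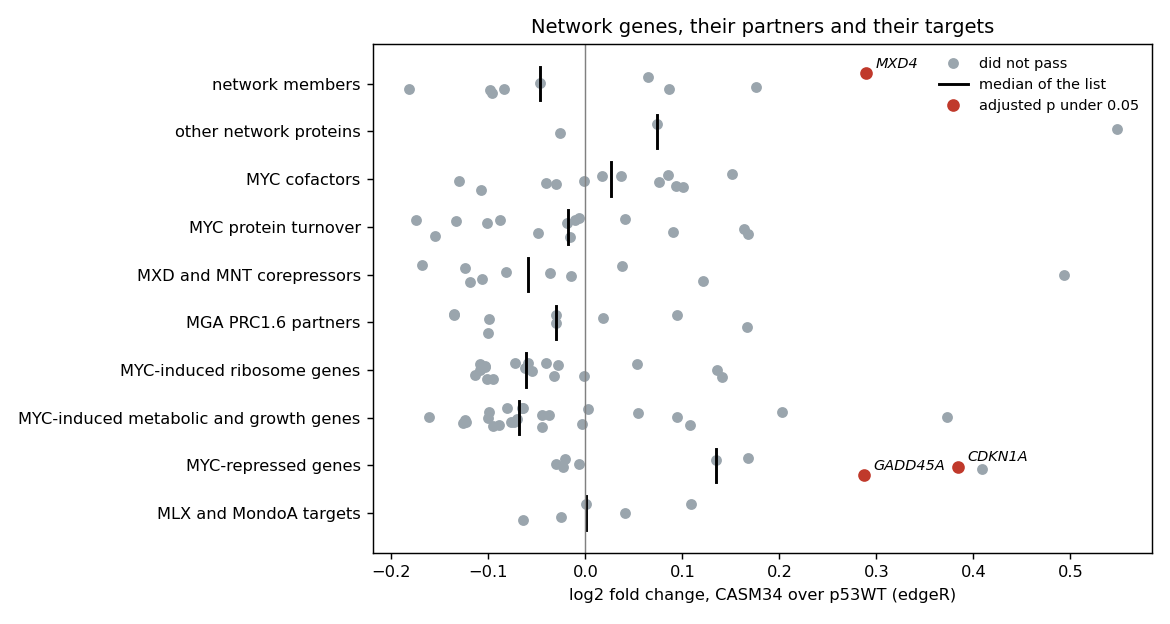
Log2 fold changes, CASM34 over p53WT, of the tested genes of each list, with a line at each list's median and colour for genes with an edgeR adjusted p under 0.05. MXD4 among the members and CDKN1A and GADD45A among the genes repressed by MYC pass.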

How the data were processed

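Each library has a deposited table that, per the file headers, gives the expected count, effective length and TPM of each gene in each library. The expected counts were estimated by the authors with RSEM, which shares reads among gene models. Beside MLX, MXD3 and MDM2, counts were fractional in all 4 libraries for RBBP4, RUVBL1, NPM1, HSPD1, CBX3, KRT18 and VIM. TPM divides such counts by effective length and scales to a fixed total. GRCh38, STAR, RSEM and Trim Galore are named in the submitters' processing notes, with versions, annotation release and strand setting not given in the sources used here. Gene names were matched for 61803 of 61852 IDs, and GC content and coordinates are from GENCODE 29. GC content was available for 15664 of the 15965 genes tested.

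The expected counts, after rounding to whole numbers, were tested in R 4.3.3 with edgeR 4.0.16 (quasi-likelihood F test). Scaling was by TMM (factors 0.993 to 1.01), the filter was filterByExpr at a minimum of 10 counts, and the model held only the group. Fold changes are CASM34 over p53WT, standard errors come from the size of the fold change and its F value, and a gene passed when its p, adjusted by Benjamini-Hochberg across every tested gene, was under 0.05. The common dispersion was 0.00193. Libraries of a group differed beyond counting error (chi-square per degree of freedom 3.94 in CASM34 and 3.89 in p53WT), so none is a copy of another. This does not show whether they came from separate cultures. The floor of 3 counts covers counting error only. Scripts were tested on simulated data. Some results are not reported here.

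The 10 members and the other 14 gene lists were chosen with earlier results of these data known. Named were all members, the other network proteins and, in each further list, up to 4 genes that passed or else the 2 with the highest mean CPM. The 17 alternatives were other scalings, filters, tests (DESeq2 1.42.0, limma 3.58.1), units, offsets, a replicate block and leaving out each library. The GC and length offset fits each library's deviation from a gene's mean log2 CPM by splines (5 degrees of freedom) over genes with a mean CPM of at least 1. After its count was seen to differ from an earlier analysis, 2 further versions, fitted on the tested genes only, were tried. Neither replaced it, and both are reported.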

Additional observations from a re-analysis of the deposited data

How the results depend on the processing

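MXD4 was above 0 in all 19 alternatives and passed in 10. The members that passed numbered 1 in those 10 and 0 in limma on log2(TPM + 1) and log2(TPM + 0.1), with the effective length offset, with the GC and length offset, with the replicate block combined with that offset (MXD4 adjusted p = 0.112), in both later versions of the offset (adjusted p = 0.335 and 0.311), and without p53WT replicate 1 or 2. Leaving out a library gave 0 to 1 members. Changed genes numbered 312, and 777 with no filter on low counts, 203 with DESeq2, 0 in both limma fits on TPM (1820 and 1811 genes with an unadjusted p under 0.05), 5 with the effective length offset, 81 with the GC and length offset (43 higher and 38 lower), 72 and 71 with its later versions (36 and 35 higher), and 109 to 919 without a library (497 and 919 when CASM34 replicate 1 or 2 was left out, 109 and 153 when p53WT replicate 1 or 2 was). Those later versions were chosen after seeing the data. The cause of these shifts was not tested. Same-numbered libraries did not deviate together (correlation 0.0335), which cannot decide whether they were paired, and the labels do not state a pairing. The replicate block, with 1159 changed genes (432 with the GC and length offset), is therefore not read as a paired analysis. With the block 2 of the ribosome genes rose, and 1 of the metabolic genes rose and 1 fell, while with the block and the GC and length offset 3 and 2 fell and 0 rose. With the block AURKA (-0.16, edgeR adjusted p = 0.0194) and RBBP4 (-0.17, 0.0101) passed as lower. SAP30 (0.51, 7.6e-05) and 1 gene of MYC protein turnover passed as higher. With the block and that offset RUVBL2 passed as lower (-0.13, edgeR adjusted p = 0.0159) and SAP30 as higher (0.51, 0.00265). The repressor to MYC difference ranged from -0.0184 to 0.00032 without a library.

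Of 171 values for the members under alternatives 11 changed sign, and none of the values that changed sign, in members or other named genes, had passed. With the GC and length offset MYC lay at -0.0050, MNT at -0.055, MLXIP at -0.019, PFKFB3 at -0.10, KLF10 at 0.0086 and KRT18 at -0.049. With the replicate block as well, these were -0.0047, -0.056, -0.021, -0.094, 0.0040 and -0.049. The later versions gave -0.026 and -0.031 for MYC, -0.083 and -0.080 for MNT, -0.043 and -0.043 for MLXIP, -0.13 and -0.13 for PFKFB3, -0.080 and -0.073 for KRT18 and -0.0018 and -0.00038 for VIM. Limma on TPM gave HUWE1 0.055 and 0.056, TFDP1 0.0092 and 0.0093 and KRT18 -0.00030 and -0.00030, and the effective length offset gave HUWE1 0.068 and TFDP1 0.020. PFKFB3 lay at -0.0013 with median-of-ratios scaling, -0.00011 with upper-quartile scaling, -0.0059 with no filter and -0.0043 with limma-voom. Without a library the log2 fold changes ran from -0.067 to 0.44 for MYCL, -0.20 to 0.013 for MXD1, -0.0082 to 0.16 for MNT, -0.16 to 0.11 for MXD3, -0.089 to 0.075 for HUWE1, -0.073 to 0.0076 for TFDP1 and -0.12 to 0.0053 for NCL. They ran from -0.073 to 0.080 for PFKFB3, -0.087 to 0.026 for KLF10, -0.014 to 0.067 for VIM, -0.0075 to 0.028 for KRT18 and -0.44 to 0.72 for VWF. Among the network genes, low counts widen the errors of MYCL and MLXIPL and left MYCN untested.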
